A study of Mus musculus with 10 samples.

Results

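The genes described here are 41 genes of the TCA cycle, of pyruvate entry into it and of the malate shuttle, chosen by name from a fixed list: 20 cycle enzymes, 9 genes of the pyruvate dehydrogenase complex and its regulators, 5 malic and other anaplerotic or citrate enzymes, and 7 carriers. All 41 symbols were found among the 22165 gene identifiers of the deposited count table, and all 41 were among the 11614 genes abundant enough to be tested. The cells were macrophages lavaged from the peritoneal cavity of C57BL/6 mice and sorted after staining for CD115, CD64 and ICAM-2, proteins on the surface of macrophages and monocytes. Knockout (KO) mice carried LysM-Cre and floxed alleles of the gene to be deleted. The controls are labelled wild type (WT), and elsewhere in the same labels are given as floxed mice without Cre. Knockout and wild-type groups thus also differ by the presence of Cre, and LysM-Cre deletes only in myeloid cells that express the Lyz2 locus.

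Mice of each genotype had been given IL-4 bound to an antibody against it, or saline (basal), 36 hours before a lavage with 5 ml of PBS. The 10 libraries were 3 KO IL-4, 2 KO basal, 3 WT IL-4 and 2 WT basal libraries of polyadenylated RNA, with 8762403 to 15024073 counted reads each. Nothing in the labels says that the replicates came from separate mice, so the p-values below measure the spread between libraries, which may be partly technical. The age of the mice is not given in the sources used here. Values are CPM, read counts brought to a common library total with TMM scaling factors, and ± is the SD between libraries after a mean CPM and the standard error after a log2 difference. A gene passed when its adjusted p, from edgeR's quasi-likelihood test with Benjamini-Hochberg adjustment over all 11614 genes, was under 0.05. Whether reads were spread over whole transcripts is not given in the sources used here, so levels are compared between libraries and not between genes.

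The TCA cycle oxidises acetyl groups in the mitochondrial matrix and hands their electrons to the respiratory chain. Pyruvate enters through the pyruvate dehydrogenase complex, which kinases switch off and phosphatases switch on, or through pyruvate carboxylase. Carbon from amino acids also enters, in part as alpha-ketoglutarate. Malate and citrate leave the mitochondrion through carriers, and malic enzymes turn malate back into pyruvate. In macrophages, alternative activation by IL-4 is known for a cycle that runs intact and feeds respiration.

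Of the 41 genes, 4 passed the test in any comparison, all of them between IL-4 and basal libraries: 3 in wild type, where 6.06% of all genes tested passed, and 1 in knockout, where 7.60% did. In wild type Me2, a mitochondrial malic enzyme, and Pdk1, a pyruvate dehydrogenase kinase, were higher in IL-4 than in basal libraries. Sdhd, a membrane subunit of succinate dehydrogenase, was lower. In knockout Slc25a13, the aspartate-glutamate carrier citrin of the malate-aspartate shuttle, was higher in IL-4 than in basal libraries. With edgeR, 0 members passed between genotypes after IL-4, where 0.827% of all genes did, 0 under basal conditions, beside 4.14%, and 0, beside 2.81%, for the interaction, the difference left when the wild-type IL-4 effect is taken from the knockout one.

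RefSeq promoter windows (GRCm38.p6, 250 bases before to 50 after the gene start) were at hand for 37 of the 41 genes. Of the 4 genes that passed between IL-4 and basal libraries, Me2 was left out, and the motif counts below do not cover it. The windows of the other 3 are printed. Each was searched on both strands for TTC and GAA with any 4 bases between them, the spaced palindrome that the IL-4-activated factor STAT6 binds, and for ACGTG and GCGTG, the cores of the hypoxia response element, as Pdk1 is a known target of hypoxia-inducible factors. Capitals mark matches to ACGTG or GCGTG or to their reverse complements.
Pdk1 (chr2:71872974-71873273, plus strand): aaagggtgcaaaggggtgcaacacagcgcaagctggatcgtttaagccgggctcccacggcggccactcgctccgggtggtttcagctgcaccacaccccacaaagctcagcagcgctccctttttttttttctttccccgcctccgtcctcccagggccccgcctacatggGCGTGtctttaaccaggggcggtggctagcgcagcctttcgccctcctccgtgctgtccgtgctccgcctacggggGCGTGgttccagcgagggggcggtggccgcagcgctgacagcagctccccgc
Sdhd (chr9:50603800-50604099, minus strand): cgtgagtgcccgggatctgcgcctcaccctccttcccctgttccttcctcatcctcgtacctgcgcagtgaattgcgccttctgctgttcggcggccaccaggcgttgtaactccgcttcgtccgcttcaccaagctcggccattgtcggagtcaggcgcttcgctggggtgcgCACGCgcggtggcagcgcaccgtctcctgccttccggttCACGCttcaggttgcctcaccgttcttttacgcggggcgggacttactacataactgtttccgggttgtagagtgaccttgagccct
Slc25a13 (chr6:6217124-6217423, minus strand): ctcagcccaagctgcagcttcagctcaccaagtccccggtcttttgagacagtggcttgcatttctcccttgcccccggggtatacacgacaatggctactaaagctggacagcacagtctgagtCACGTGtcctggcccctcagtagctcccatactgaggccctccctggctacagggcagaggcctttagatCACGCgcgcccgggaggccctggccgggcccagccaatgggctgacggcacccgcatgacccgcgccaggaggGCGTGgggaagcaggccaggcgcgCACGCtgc
None of these 3 windows held the spaced palindrome, which 6.95% of 32851 windows of the same length held. GCGTG occurred in all 3, with 2 matches in Pdk1, 2 in Sdhd and 3 in Slc25a13, against 32.4% of all windows with at least 1. The 2 matches to ACGTG in Slc25a13 overlap each other as CACGTG, and 19.6% of all windows held ACGTG. The Sdhd window also holds the start of its head-to-head neighbour Timm8b, a gene of mitochondrial protein import.

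Markers of other cells differed between the groups. All 9 macrophage markers had counts in every group. Their sum was 4998 to 5372 CPM in KO IL-4 and 5233 to 5387 in KO basal libraries. It was 5215 to 5354 CPM in WT IL-4 and 6397 to 7596 in WT basal libraries. The markers did not move together. Mean CPM of Itgam was 3561 in WT basal and 2332 in WT IL-4 libraries, and that of Mertk 296 and 509. With IL-4 in wild type Fcgr1, the gene of CD64 (log2 -1.78, adjusted p = 0.00221), and Icam2 (-1.27, 0.0214) passed as lower. Mertk passed as higher (0.78, 0.0351), and the other macrophage markers did not pass there. The 9 markers of small macrophages, monocytes and dendritic cells, none at 0 in any group, summed to 1985 to 2010 CPM in KO IL-4, 1494 to 1922 in KO basal, 2312 to 2808 in WT IL-4 and 402 to 808 in WT basal libraries. This sum thus moved with IL-4 in wild type, the comparison in which Sdhd, Pdk1 and Me2 passed. It was also higher with IL-4 in knockout, the comparison in which Slc25a13 passed. Of its markers only Ccr2 passed in knockout (log2 2.08, adjusted p = 0.000542). The 10 B cell markers, none at 0 in any group, summed to 326 to 453 CPM in KO IL-4, 1119 to 1415 in KO basal, 358 to 415 in WT IL-4 and 131 to 222 in WT basal libraries. The 7 mast cell markers summed to 1.52 to 2.92, 156 to 259, 2.68 to 3.99 and 26.8 to 28.3 CPM in the same order of groups. The 7 T and NK cell markers summed to 96.3 to 96.9 CPM in KO basal libraries and to 37.9 CPM or less in the other groups. Most of the KO basal sums was Cd2, at 84.5 and 82.4 CPM. Only Cd2 of the 7 passed between basal genotypes, and Cd3e, Cd3d and Cd3g did not (log2 1.06, 0.28 and -0.44). The 6 markers of dividing cells summed to 354 to 831 CPM in KO IL-4 and 42.1 to 71.8 in KO basal libraries. They summed to 187 to 230 CPM in WT IL-4 and 95.4 to 111 in WT basal libraries. The dividing-cell sum was thus higher with IL-4 in both genotypes. The 6 neutrophil markers summed to 130 to 181 CPM in KO IL-4 and 180 to 258 in KO basal libraries. They summed to 182 to 221 CPM in WT IL-4 and 254 to 356 in WT basal libraries. After IL-4, S100a8 (log2 -1.58, adjusted p = 0.01885) and S100a9 (-2.04, 0.0354) passed as lower in knockout. The other neutrophil markers tested did not pass there. The 4 erythroid markers summed to 1.44 to 3.76, 13.7 to 29.6, 4.39 to 5.66 and 0 to 6.52 CPM in the same order of groups. The part of all these cells in the results below was not tested. In sorted bulk samples a change in the mix of cells and a change of RNA per cell cannot be told apart.

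**Figure D1:**
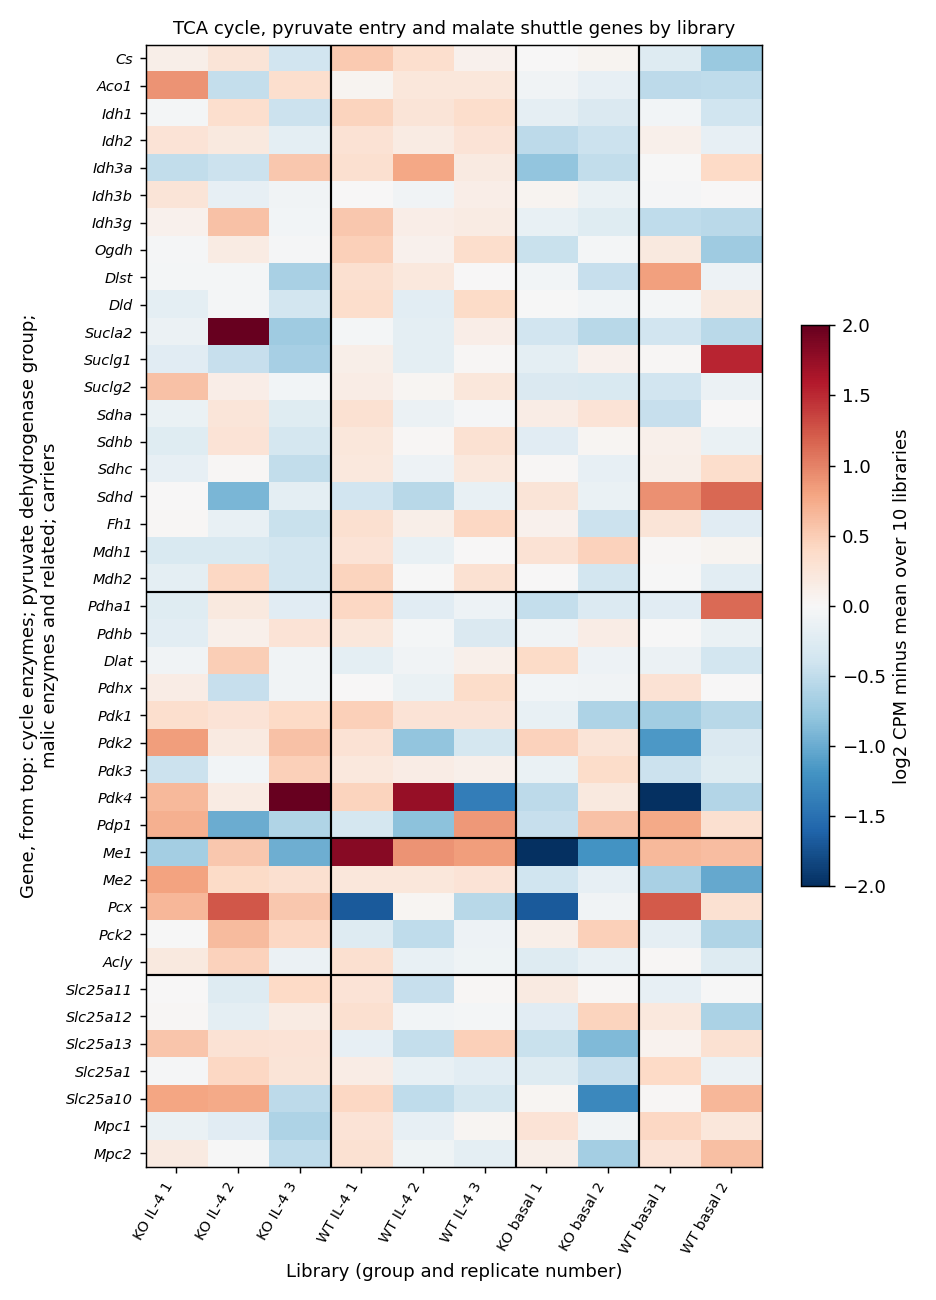
Heat map of the 41 genes (rows, in the 4 groups of the list) over the 10 libraries (columns), with log2 CPM minus each gene's mean over the libraries as colour, which is full at -2 and 2. Most rows are pale, the low-count genes Pdk4, Me1 and Pcx have dark cells in several libraries, Sdhd is darkest red in both WT basal libraries, and single dark cells mark Sucla2 in KO IL-4 replicate 2 and Suclg1 and Pdha1 in WT basal replicate 2.

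The cycle enzymes were first compared between IL-4 and basal libraries. In wild type 0 of the 20 rose, 1 fell and 19 did not pass, with a median log2 difference of 0.26 (range -1.41 to 0.82), against a median of 0.00 over all genes tested. Of all genes tested, 6.06% passed in this comparison, 3.26% as higher and 2.80% as lower, and of the 41 members 2 rose and 1 fell. The libraries of the 2 conditions were apart for 11 members as higher and 2 as lower, against 40.2% of all genes, 20.8% as higher and 19.5% as lower. Among the 20 in knockout 3 were higher and 1 lower at an unadjusted p under 0.05, beside 22.7% of all genes. Of the 20, 0 passed, with a median of 0.04 (range -0.71 to 1.95). DESeq2 passed 1 of them, Mdh1. Of all genes tested, 7.60% passed in knockout, 4.09% as higher and 3.51% as lower, and of the 41 members 1 rose and 0 fell. There 13 members were apart as higher and 3 as lower, against 39.6% of all genes, 18.4% as higher and 21.2% as lower. The split of calls depended on the scaling: 475 genes rose and 408 fell in knockout and 379 and 325 in wild type with TMM, against 386 and 532 in knockout and 481 and 256 in wild type with library totals alone. Library totals moved the median log2 difference of all genes to -0.10 in knockout, to 0.13 between basal genotypes and to -0.17 for the interaction.

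Sdhd (ENSMUSG00000000171, mm10 chromosome 9, 50596357 to 50603812) encodes a membrane anchor of succinate dehydrogenase, the enzyme that is also complex II of the respiratory chain. It had 10.6, 9.44 and 12.5 CPM in WT IL-4 libraries, against 26.4 and 31.0 CPM in WT basal libraries. The groups did not overlap, and Sdhd was 2.66-fold lower with IL-4 (log2 -1.41 ± 0.30, adjusted p = 0.0125). In knockout it had 14.0, 7.30 and 12.1 CPM with IL-4 and 16.7 and 12.7 CPM under basal conditions. These groups overlapped, and the difference did not pass (log2 -0.40 ± 0.31, adjusted p = 0.477). The WT basal libraries were thus the high group, and the difference between the 2 IL-4 effects did not pass either (log2 1.01 ± 0.44, adjusted p = 0.283). The other subunits did not follow in wild type, where Sdha (log2 0.28), Sdhb (0.19) and Sdhc (-0.13) did not pass. Timm8b, picked for its position opposite Sdhd, did not pass either (log2 0.13 ± 0.26, adjusted p = 0.821). Sdhd lost its call without WT basal replicate 2 (adjusted p = 0.0896) or WT IL-4 replicate 2 (0.0596).

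Citrate synthase, which starts the cycle by joining acetyl-CoA to oxaloacetate, did not pass in wild type. Cs had 46.9, 40.9 and 34.6 CPM in WT IL-4 libraries and 27.2 and 19.3 CPM in WT basal libraries, groups that did not overlap (log2 0.81 ± 0.27, adjusted p = 0.0930). In knockout it had 35.24, 38.86 and 24.996 CPM with IL-4 and 32.6 and 33.7 CPM under basal conditions, with a log2 difference within 0.57 of 0 either way by its 95% interval. Idh3g, a regulatory subunit of the NAD-linked isocitrate dehydrogenase, had 51.1, 38.6 and 39.4 CPM in WT IL-4 libraries, against 24.6 and 24.2 CPM in WT basal libraries (log2 0.82 ± 0.26, adjusted p = 0.0800). Its knockout libraries did not overlap either, at 33.9 to 52.8 CPM with IL-4 and 29.7 to 31.6 CPM under basal conditions (log2 0.43 ± 0.26, adjusted p = 0.340). DESeq2 passed Idh3g (adjusted p = 0.0314) and Cs (0.0435) in wild type. The catalytic subunit gene Idh3a (log2 0.23 ± 0.33) and Idh3b (0.03) did not pass there.

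Malate dehydrogenase, which makes oxaloacetate from malate, has a cytosolic and a mitochondrial gene. Mdh1, the cytosolic enzyme of the malate-aspartate shuttle, had 49.97, 49.84 and 47.67 CPM in KO IL-4 libraries, against 75.6 and 85.4 CPM in KO basal libraries. The groups were apart, but the difference did not pass (log2 -0.71 ± 0.22, adjusted p = 0.0604). It passed with DESeq2 (adjusted p = 0.0197) and with library totals in place of TMM (0.0386). Mdh2, the enzyme of the matrix, had 56.4 to 96.7 CPM with IL-4 and 56.7 to 73.0 CPM under basal conditions in knockout, which overlapped (log2 0.16). In wild type Mdh1 had 55.8 to 74.8 CPM with IL-4, which took in both basal libraries at 63.1 and 64.4 CPM (log2 0.01). The difference between the IL-4 effects on Mdh1 was log2 -0.72 ± 0.31 (adjusted p = 0.286). Exons of Mdh1 share 52 bases with those of Wdpcp on the opposite strand, and the strand setting of the counting is not given in the sources used here.

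Among the dehydrogenases that make alpha-ketoglutarate, Idh1, the cytosolic NADP-linked enzyme, had 204 to 232 CPM in WT IL-4 and 128 to 163 CPM in WT basal libraries (log2 0.58 ± 0.24, adjusted p = 0.173). Idh2, its mitochondrial counterpart, had 47.4 to 65.8 CPM in KO IL-4 and 37.5 to 40.3 CPM in KO basal libraries (log2 0.59 ± 0.24, adjusted p = 0.148). Both sets of groups were apart without passing. Suclg2, the GTP-forming subunit of succinyl-CoA synthetase, had 113 to 177 CPM in KO IL-4 and 95.3 to 96.7 CPM in KO basal libraries (log2 0.54 ± 0.24, adjusted p = 0.186). Fumarase (Fh1), the alpha-ketoglutarate dehydrogenase genes Ogdh, Dlst and Dld, and Aco1, the cytosolic aconitase, did not pass in either genotype.

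Succinyl-CoA synthetase had single libraries far from their replicates. Sucla2, its ATP-forming subunit, had 26.9, 201 and 17.9 CPM in KO IL-4 libraries, 22.5 and 19.9 CPM in KO basal, 28.59, 25.53 and 32.02 CPM in WT IL-4, and 22.3 and 20.1 CPM in WT basal libraries. KO IL-4 replicate 2 thus stood 11.3-fold above the lowest replicate of its group. The log2 difference between genotypes after IL-4 was 1.52 ± 0.73 (adjusted p = 0.382), and it was -0.36 ± 0.26 without that library (adjusted p = 0.533). With that library kept and no filter on low counts, edgeR passed Sucla2 between genotypes after IL-4 (adjusted p = 9.19e-06). In the same setting Sucla2 passed with IL-4 in knockout (7.32e-08) and for the interaction (0.00843). Suclg1, the shared alpha subunit, had 40.5 and 116 CPM in WT basal libraries and 25.2 to 43.3 CPM in the other 8. With IL-4 in wild type its log2 difference was -0.98 ± 0.34 (adjusted p = 0.0971), and -0.04 without WT basal replicate 2 (adjusted p = 0.976). It passed at -1.54 without WT basal replicate 1 (adjusted p = 0.00771) and with no filter on low counts (0.0103). Between basal genotypes it was -1.02 ± 0.38 (adjusted p = 0.156), -0.07 without WT basal replicate 2 (0.974), and passed at -1.58 without WT basal replicate 1 (0.0107). Of the 35 members with a mean of at least 10 CPM, 1 had replicates more than 3-fold apart in a group, Sucla2, or 2.86% against 6.26% of 7503 such genes in the table.

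Between genotypes 0 of the 20 cycle enzymes passed with edgeR and 0 with DESeq2, both after IL-4 and under basal conditions. In both comparisons the same count of 0 held for the pyruvate dehydrogenase group and the carriers. After IL-4, 0.827% of all genes passed, 0.353% as higher and 0.474% as lower, and 0 of the 41 members passed. At an unadjusted p under 0.05 there were 2 members, beside 14.4% of all genes. Cycle enzymes had a median log2 of -0.27 (4 positive, 16 negative), against 0.02 over all genes. Libraries of the genotypes did not overlap for Dlst, Suclg1, Fh1 and Mdh1, each lower in knockout. Over all members 3 were apart as higher and 5 as lower, against 20.3% of all genes tested, 9.57% as higher and 10.7% as lower. Mdh1 had 47.67 to 49.97 CPM in KO IL-4 and 55.8 to 74.8 CPM in WT IL-4 libraries (log2 -0.38 ± 0.20, adjusted p = 0.398). Fh1 had 11.9 to 16.5 CPM in KO IL-4 and 17.6 to 21.6 CPM in WT IL-4 libraries (log2 -0.47 ± 0.26, adjusted p = 0.418).

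Under basal conditions 4.14% of all genes passed between genotypes and 0 of the 41 members did. At an unadjusted p under 0.05 there were 7 members, beside 17.7% of all genes. Of all genes 303 (2.61%) were called higher and 178 (1.53%) lower, or 421 and 110 with library totals. DESeq2 passed 1 member, Me1. The libraries of the genotypes were apart for 12 members as higher and 11 as lower, or 23 of 41, beside 48.2% of all genes, 23.7% as higher and 24.5% as lower. The cycle enzymes had a median log2 of -0.05 (range -1.02 to 0.51). Sdhd was 16.7 and 12.7 CPM in KO basal libraries, against 26.4 and 31.0 CPM in WT basal libraries (log2 -0.97 ± 0.34, adjusted p = 0.129). Idh3a had 11.7 and 14.3 CPM in KO basal and 20.1 and 26.9 CPM in WT basal libraries (log2 -0.85 ± 0.37, adjusted p = 0.238). Both genes were lower in each knockout library, and neither passed. These KO basal libraries are those with the highest B cell and mast cell marker sums. Sums of macrophages, of T and NK cells and of erythroid and dividing cells did not overlap between the basal genotypes either. The same held for small macrophages, monocytes and dendritic cells, while the neutrophil sums overlapped. The part of these cells in the Sdhd and Idh3a values was not tested.

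**Figure D2:**
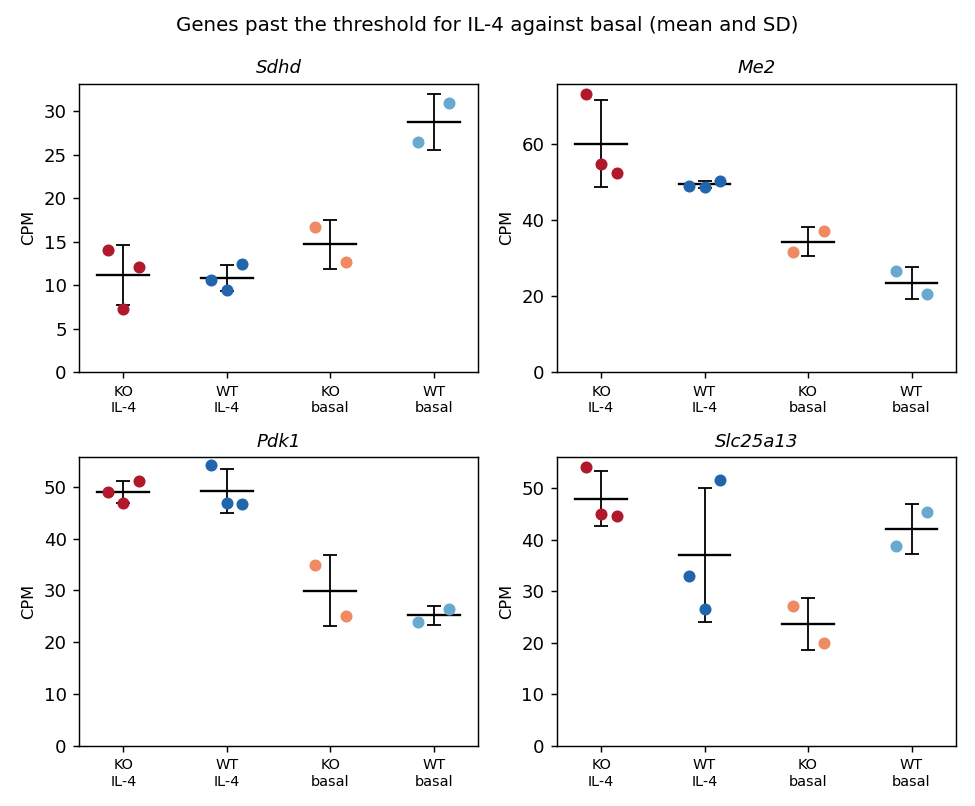
CPM (vertical axes, from 0) of the 4 genes that passed between IL-4 and basal libraries, by group, with 1 point per library and the mean ± SD as lines. Sdhd stood at 26.4 and 31.0 CPM in WT basal libraries and at 16.7 or less elsewhere, while Me2 and Pdk1 stood higher in the IL-4 libraries of both genotypes.

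In the pyruvate dehydrogenase group, 1 of 9 genes rose with IL-4 in wild type, 0 fell and 8 did not pass. Their median log2 was 0.19. In this comparison 6.06% of all genes passed, 3.26% as higher. Pdk1 (ENSMUSG00000006494, mm10 chromosome 2, 71873224 to 71903858), a kinase that inactivates the complex, had 54.1, 46.8 and 46.7 CPM in WT IL-4 libraries, against 23.9 and 26.5 CPM in WT basal libraries. It was 1.95-fold higher (log2 0.97 ± 0.24, adjusted p = 0.0275). In knockout it had 48.95, 46.84 and 51.19 CPM with IL-4 and 34.8 and 25.1 CPM under basal conditions. Those groups were also apart, but the difference did not pass (log2 0.71 ± 0.24, adjusted p = 0.0872), while DESeq2 passed it (0.0286). The interaction was log2 -0.26 ± 0.33 (adjusted p = 0.781, 95% interval -0.97 to 0.45). With the replicate number as a block, Pdk1 did not pass in wild type. The call in wild type was lost without WT basal replicate 1 (adjusted p = 0.141) or 2 (0.115), or without WT IL-4 replicate 1 (0.0846), 2 (0.0598) or 3 (0.0649).

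The other kinases did not pass in wild type or knockout, and Pdk2 and Pdk4 had low counts. Pdk4, the kinase gene induced in fasting, had 2.64, 1.84 and 11.1 CPM in KO IL-4, 1.08 and 1.88 CPM in KO basal, 2.28, 5.85 and 0.515 CPM in WT IL-4 and 0 and 1.03 CPM in WT basal libraries. Its WT IL-4 libraries were up to 11.4-fold apart, and 1 of its WT basal libraries had no read. Its log2 difference with IL-4 in wild type was 2.46 ± 1.21 (adjusted p = 0.268). With no filter on low counts edgeR passed it (log2 2.44, adjusted p = 0.0197). Pdk2 had 4.97 and 4.29 CPM in KO basal libraries, against 1.51 and 2.91 CPM in WT basal libraries (log2 1.06 ± 0.55, adjusted p = 0.342). After IL-4 its genotypes overlapped, at 4.07 to 6.50 CPM in knockout and 1.99 to 4.40 CPM in wild type (log2 0.80 ± 0.44, adjusted p = 0.424). Pdk3 ranged from 8.84 to 16.7 CPM over the 10 libraries. Pdp1, a phosphatase that reactivates the complex, ranged from 0.691 to 2.99 CPM.

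The subunits of the complex did not pass in any comparison with all libraries and the filter on low counts. Pdha1, the E1 alpha subunit on which the kinases act, had 131 CPM in WT basal replicate 2 and 42.9 to 79.8 CPM in the other 9 libraries. Its log2 difference between basal genotypes was -0.98 ± 0.37 (adjusted p = 0.173, or 0.0205 with no filter on low counts). It was -0.15 without that library (adjusted p = 0.936), and passed at -1.49 without WT basal replicate 1 (0.0212). Exons of Pdha1 overlap Map3k15 on the opposite strand over 603 bases. Pdhb, the E1 beta subunit, had 24.1 to 35.7 CPM over all libraries, Dlat, the E2 subunit, 17.0 to 30.9 CPM, and Pdhx, which anchors E3, 12.0 to 21.3 CPM. With IL-4 the log2 differences of these 3 lay between -0.06 and 0.19 in both genotypes.

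Me2 was the malic enzyme that passed. Me2 (ENSMUSG00000024556), which makes pyruvate from malate in the matrix, had 49.1, 48.8 and 50.3 CPM in WT IL-4 libraries, against 26.5 and 20.6 CPM in WT basal libraries. It was 2.10-fold higher with IL-4 (log2 1.07 ± 0.25, adjusted p = 0.0198). In knockout it had 73.2, 54.8 and 52.3 CPM with IL-4, against 31.6 and 37.1 CPM under basal conditions. That difference was 1.75-fold and just missed the threshold (log2 0.81 ± 0.25, adjusted p = 0.0597), and DESeq2 passed it (0.0150). The IL-4 libraries of both genotypes were above all 4 basal libraries. Libraries were apart as higher with IL-4 for 20.8% of all genes in wild type and for 18.4% in knockout. For Me2 the interaction was log2 -0.26 ± 0.34 (adjusted p = 0.781). Between genotypes Me2 was higher in each knockout library, without passing, after IL-4 (log2 0.28, adjusted p = 0.584) and under basal conditions (log2 0.55, adjusted p = 0.308). Such separation held for 9.57% of all genes after IL-4 and for 23.7% under basal conditions. The call in wild type was lost without WT basal replicate 2 (adjusted p = 0.175), or WT IL-4 replicate 1 (0.0523), 2 (0.0537) or 3 (0.0615).

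Me1, the cytosolic malic enzyme that makes NADPH, stood apart by genotype at low counts. It had 1.22, 3.07 and 0.961 CPM in KO IL-4 libraries, against 7.70, 3.99 and 3.81 CPM in WT IL-4 libraries. Under basal conditions it had 0.216 and 0.805 CPM in knockout, or 2 and 9 reads, against 3.31 and 3.25 CPM in wild type, or 35 and 38 reads. In CPM every knockout library was below every wild-type library, the closest being KO IL-4 replicate 2 at 3.07 and WT basal replicate 2 at 3.25. In reads that knockout library had 40, above both WT basal libraries and WT IL-4 replicate 3, which had 37. Such separation as lower in knockout held for 10.7% of all genes after IL-4 and for 24.5% under basal conditions. The log2 difference of Me1 was -1.55 ± 0.58 after IL-4 (adjusted p = 0.238) and -2.62 ± 0.80 under basal conditions (adjusted p = 0.0832). The basal difference passed with DESeq2 (adjusted p = 0.0254) and with no filter on low counts (0.0169). Transcripts of Me1 are 98.5% identical to the processed pseudogene Gm7049 over 1638 bases, so reads may be shared between them. With IL-4 against basal, Me1 had log2 1.73 ± 0.76 in knockout (adjusted p = 0.191) and 0.65 ± 0.64 in wild type (adjusted p = 0.613).

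Pck2, the mitochondrial phosphoenolpyruvate carboxykinase that draws on oxaloacetate, was higher in every knockout library without passing. After IL-4 it had 25.4, 39.5 and 34.1 CPM in knockout, against 21.3, 17.9 and 23.9 CPM in wild type (log2 0.65 ± 0.25, adjusted p = 0.239). Under basal conditions it had 27.7 and 35.7 CPM in knockout, against 22.6 and 16.8 CPM in wild type (log2 0.69 ± 0.30, adjusted p = 0.243). The 5 knockout libraries were all above the 5 wild-type libraries, the closest at 25.4 and 23.9 CPM. Such separation as higher in knockout held for 9.57% of all genes after IL-4 and for 23.7% under basal conditions. After IL-4 the marker sums of dividing cells and of small macrophages, monocytes and dendritic cells did not overlap between the genotypes either. The same held for the neutrophil and erythroid sums, while the B cell sums overlapped. The part of these cells in the Pck2 values was not tested. IL-4 did not move Pck2 past the threshold in knockout (log2 0.06) or wild type (0.09). Pcx, pyruvate carboxylase, had 0 to 15 reads per library and allowed no firm value. Acly, the cytosolic citrate lyase, had 217 to 324 CPM in KO IL-4, 198 to 212 CPM in KO basal, 214 to 295 CPM in WT IL-4 and 198 to 239 CPM in WT basal libraries. Its log2 difference with IL-4 was 0.40 ± 0.23 in knockout (adjusted p = 0.320) and 0.16 ± 0.23 in wild type (adjusted p = 0.750).

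**Figure D3:**
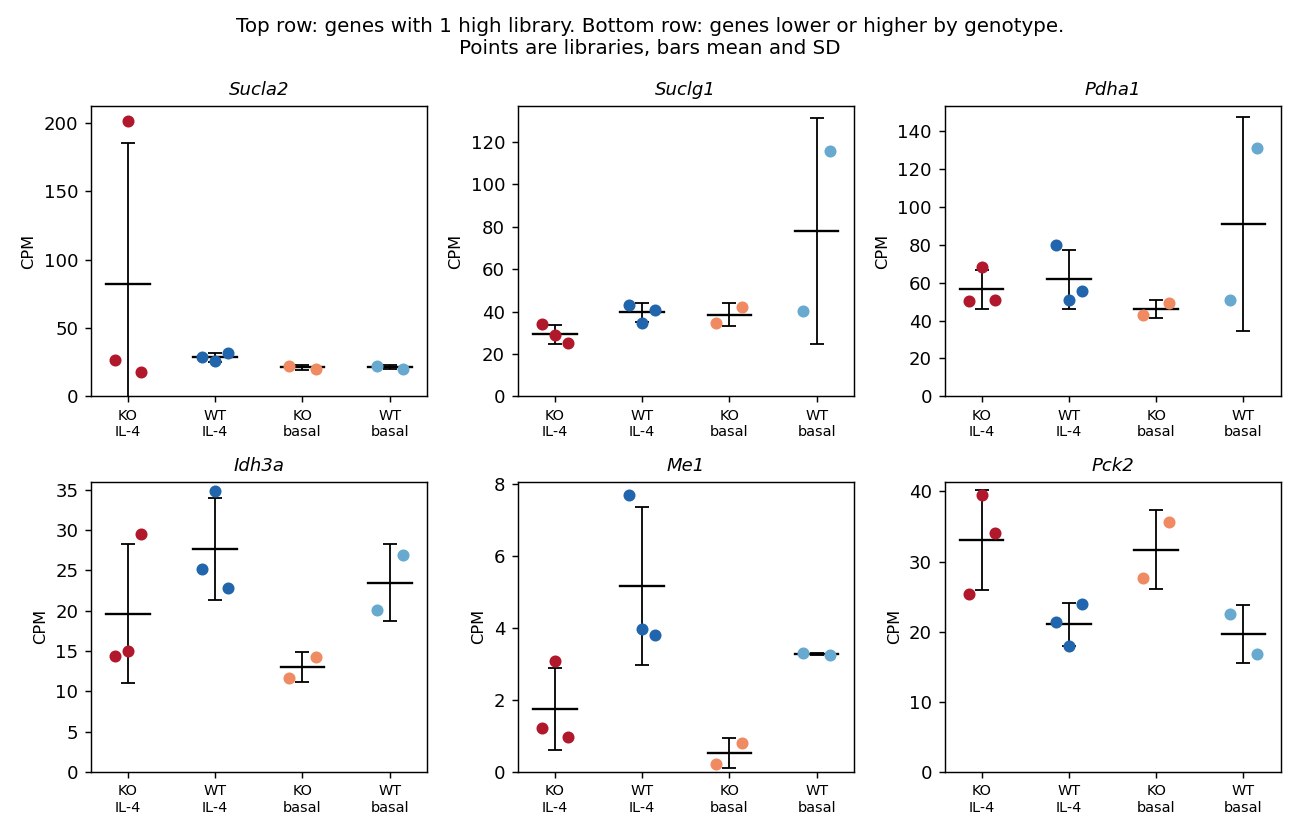
CPM (vertical axes, from 0) by group for 3 genes with 1 high library (Sucla2, Suclg1 and Pdha1) and 3 genes with genotypes apart under basal conditions (Idh3a, Me1 and Pck2), with 1 point per library and the mean ± SD as lines, cut at 0 for Sucla2. Sucla2 reached 201 CPM in KO IL-4 replicate 2 alone, and the knockout libraries lay below the wild-type libraries for Me1 and above them for Pck2.

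Among the 7 carriers, 1 rose with IL-4 in knockout, 0 fell and 6 did not pass, where 7.60% of all genes passed, 4.09% as higher. In wild type 0 passed with edgeR, beside 6.06% of all genes, and 0 with DESeq2. At an unadjusted p under 0.05 there were 0 carriers in wild type, beside 21.3% of all genes. Slc25a13 (ENSMUSG00000015112, mm10 chromosome 6, 6041218 to 6217173), the carrier that exports aspartate in exchange for glutamate, had 54.2, 45.1 and 44.7 CPM in KO IL-4 libraries, against 27.14 and 20.04 CPM in KO basal libraries. It was 2.04-fold higher (log2 1.03 ± 0.30, adjusted p = 0.0470). In wild type it had 33.0, 26.6 and 51.6 CPM with IL-4 and 38.7 and 45.5 CPM under basal conditions, which overlapped (log2 -0.19 ± 0.29, adjusted p = 0.770). The KO basal libraries were the low group. The interaction was log2 1.21 ± 0.41, with an unadjusted p of 0.00928 from edgeR's quasi-likelihood test and an adjusted p of 0.147. Between basal genotypes the log2 difference was -0.84 ± 0.32 (adjusted p = 0.170), and those KO libraries also had the most B cell and mast cell marker RNA. Other marker sums differed as well, such as those of dividing cells, at 42.1 to 71.8 CPM in KO basal and 354 to 831 in KO IL-4 libraries. The part of these cells in the Slc25a13 values was not tested. The call was lost in 7 of 10 fits without 1 library: without KO basal replicate 1 (adjusted p = 0.114) or 2 (0.327), KO IL-4 replicate 1 (0.0966), 2 (0.0563) or 3 (0.0687), WT basal replicate 2 (0.0501) or WT IL-4 replicate 1 (0.0657). It was also lost with library totals in place of TMM (adjusted p = 0.0647) and with the replicate number as a block.

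The other carriers did not pass in any comparison. Slc25a12, the related aspartate-glutamate carrier, had 8.39 to 18.1 CPM over the 10 libraries. Slc25a11, which exchanges malate for alpha-ketoglutarate, had 24.5 to 44.3 CPM. Slc25a1, the citrate carrier, had 13.2 to 17.9 CPM in KO IL-4 and 9.75 to 11.2 CPM in KO basal libraries, which did not overlap (log2 0.58 ± 0.29, adjusted p = 0.253). Slc25a10, the dicarboxylate carrier, ranged from 2.06 to 9.24 CPM. Mpc1 and Mpc2 form the carrier that brings pyruvate into the matrix. Mpc1 had 19.8 to 27.7 CPM in KO IL-4 and 29.2 to 37.1 CPM in KO basal libraries (log2 -0.44 ± 0.25, adjusted p = 0.326). Mpc2 had 50.9 and 29.3 CPM in KO basal libraries and 56.7 and 71.2 CPM in WT basal libraries (log2 -0.67 ± 0.32, adjusted p = 0.292).

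**Figure D4:**
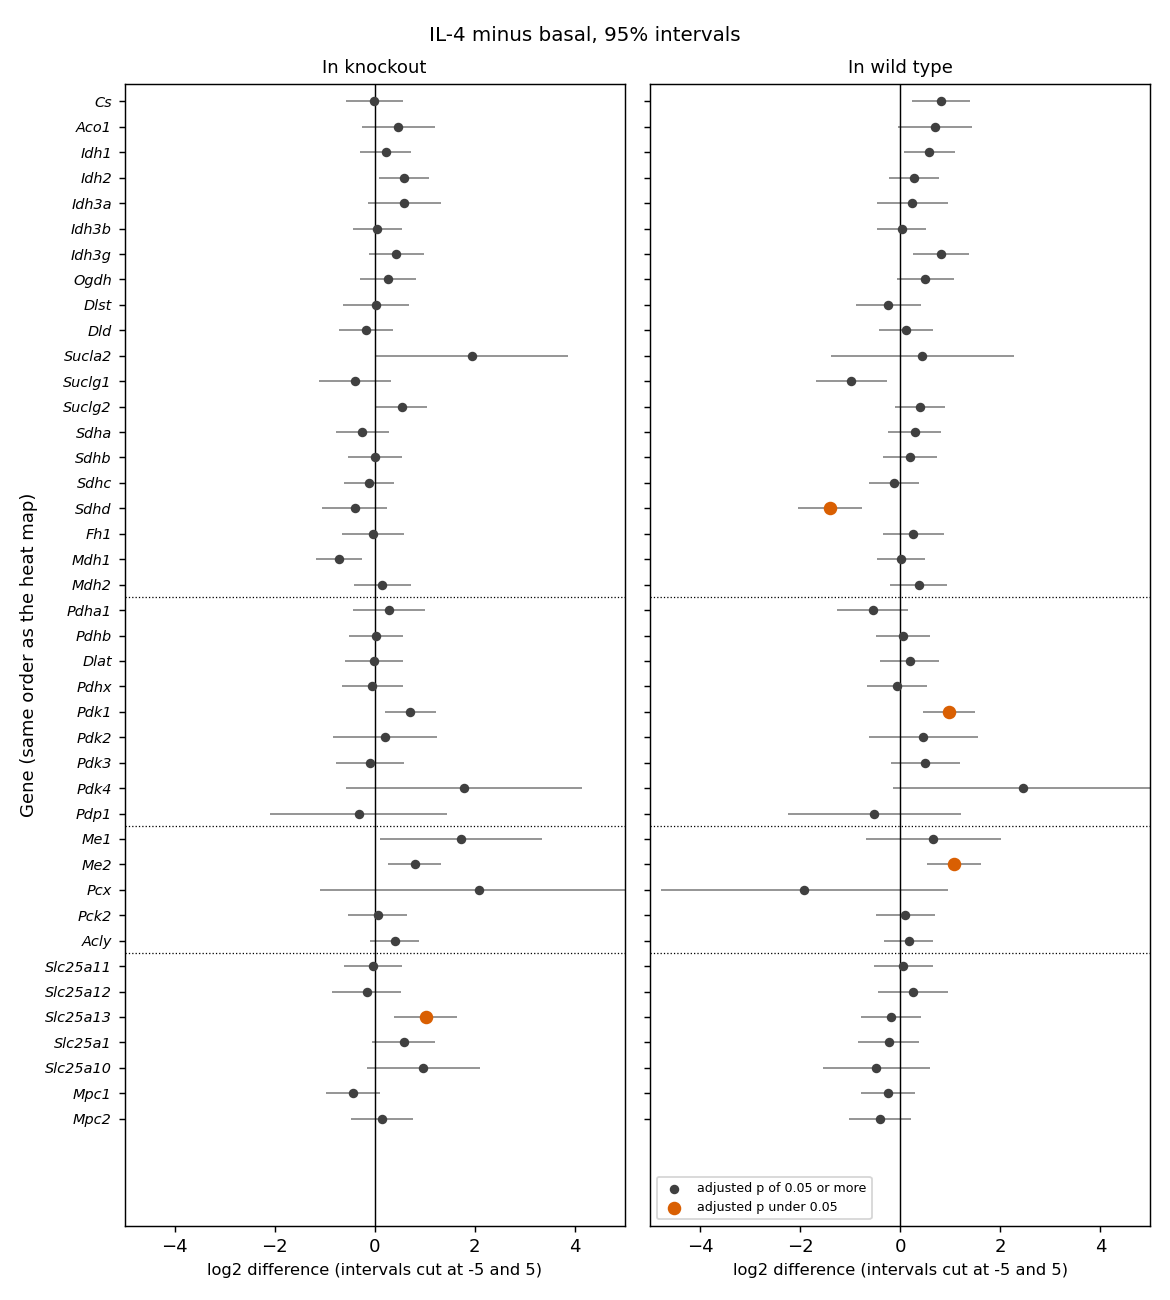
Log2 differences, IL-4 minus basal, of the 41 genes (rows) in knockout (left) and wild type (right), with 95% intervals as lines, cut at -5 and 5. Orange points mark the genes that passed, which are Slc25a13 in knockout and Sdhd, Pdk1 and Me2 in wild type.

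Over all 41 genes the IL-4 effects in knockout and wild type, which share no library, were both positive for 19 genes, both negative for 6 and opposite for 16. The same sign in both thus held for 61.0% of the members and for 59.2% of all genes tested. For the interaction 2.81% of all genes passed and 0 of the 41 members did, with DESeq2 also at 0. At an unadjusted p under 0.05 there were 4 members, beside 15.3% of all genes. Those 4 were Slc25a13, Sdhd, Mdh1 (log2 -0.72) and Cs (log2 -0.82 ± 0.38, adjusted p = 0.319). Of all genes 119 (1.02%) passed as positive and 207 (1.78%) as negative, or 92 and 275 with library totals. The genotype effects after IL-4 and under basal conditions, which share no library either, were both positive for 9 genes, both negative for 18 and opposite for 14. That is the same sign for 65.9% of the members and for 53.4% of all genes tested. Members had a median log2 of -0.09 between genotypes after IL-4 and of -0.06 under basal conditions, beside 0.02 and -0.02 over all genes.

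**Figure D5:**
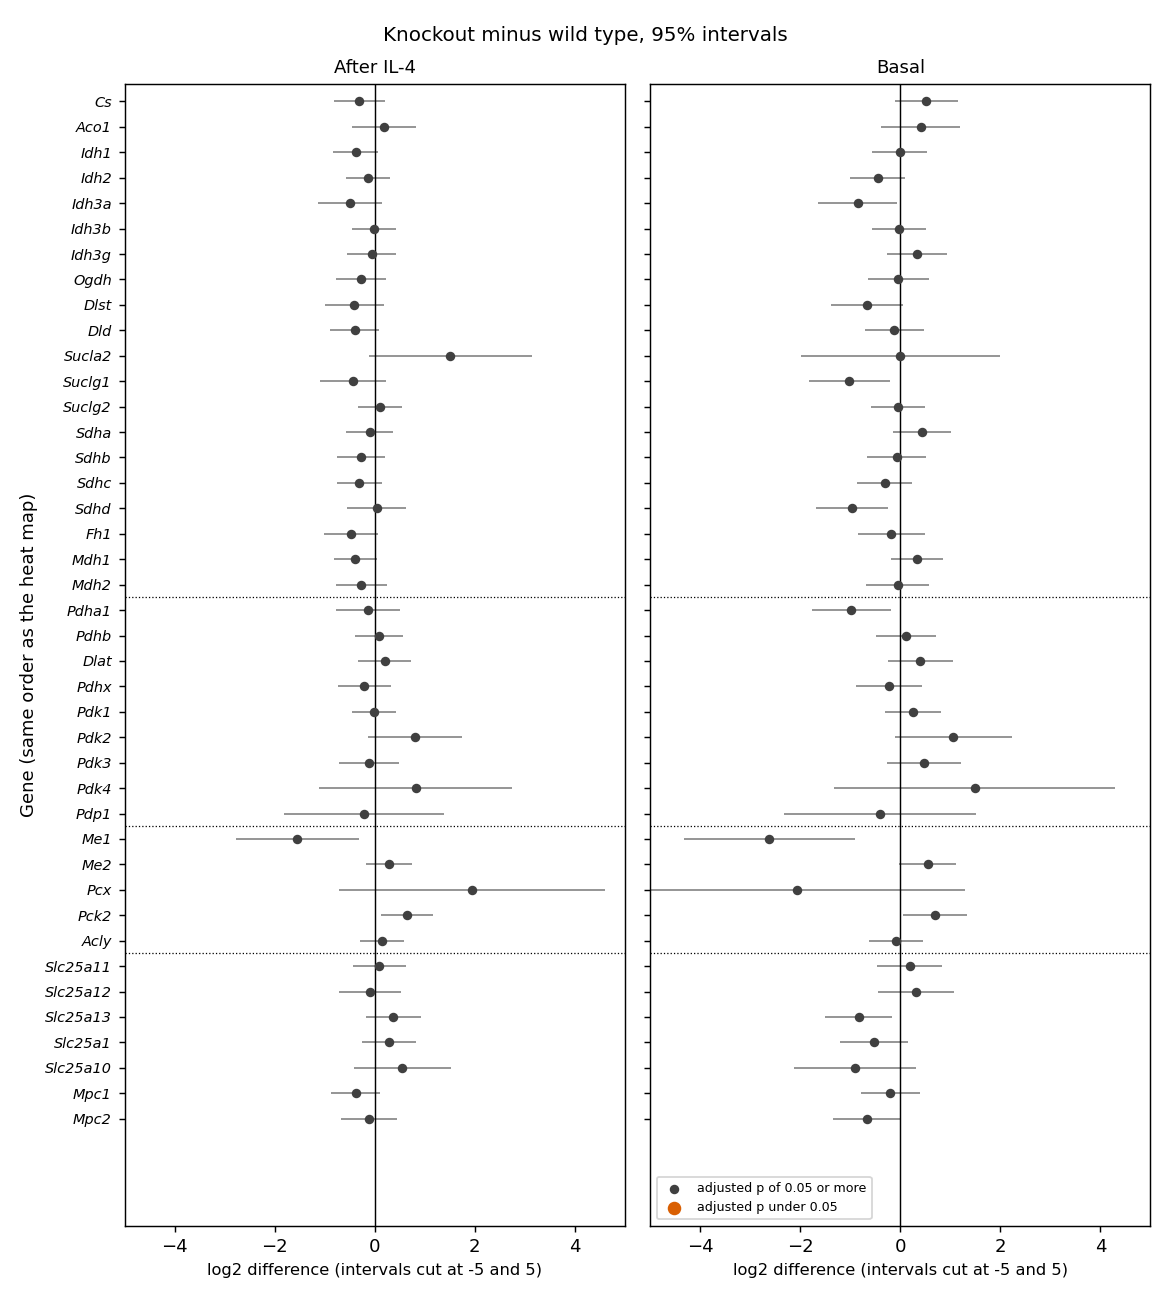
Log2 differences, knockout minus wild type, of the 41 genes (rows) after IL-4 (left) and under basal conditions (right), with 95% intervals as lines, cut at -5 and 5. No gene passed in either panel, and Me1, at -1.55 and -2.62, is the lowest of the 41 in both.

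Of 36 other genes that feed, drain or serve the cycle, 28 were tested. With IL-4 in wild type 1 of these rose and 0 fell, where 6.06% of all genes passed. In knockout 1 rose and 2 fell, where 7.60% did. Between genotypes 0 passed with edgeR after IL-4, beside 0.827% of all genes. Under basal conditions 3 rose and 0 fell, beside 4.14%. At an unadjusted p under 0.05 after IL-4, 2 were higher and 2 lower, beside 14.4% of all genes. Acss1, the mitochondrial acetyl-CoA synthetase, had 18.9, 12.8 and 14.6 CPM in KO IL-4, 27.3 and 32.1 CPM in KO basal, 15.5, 12.2 and 15.4 CPM in WT IL-4 and 6.80 and 6.68 CPM in WT basal libraries. It was 4.40-fold higher in knockout under basal conditions (log2 2.14 ± 0.31, adjusted p = 8.67e-04), and the genotypes overlapped after IL-4 (log2 0.10). With IL-4 it fell in knockout (log2 -0.95 ± 0.27, adjusted p = 0.0420) and rose in wild type (log2 1.09 ± 0.29, adjusted p = 0.0358). B cell marker sums were likewise highest in KO basal and lowest in WT basal libraries, and their part in the Acss1 values was not tested. Without WT basal replicate 2 the rise in wild type did not pass (adjusted p = 0.173), and it passed in 4 of 10 fits without 1 library. The fall in knockout passed in 3 of 10 such fits, with an adjusted p up to 0.272 without KO basal replicate 2.

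Pdpr, a regulatory subunit of the pyruvate dehydrogenase phosphatase, also rose in KO basal libraries, with 67.4 and 77.0 CPM, against 36.9 and 38.3 CPM in WT basal libraries (log2 0.94 ± 0.24, adjusted p = 0.0400). After IL-4 it had 61.0 to 71.7 CPM in knockout and 44.4 to 51.3 CPM in wild type, which did not overlap or pass (adjusted p = 0.302). D2hgdh, which oxidises D-hydroxyglutarate to alpha-ketoglutarate, rose in KO basal libraries to 15.03 and 10.02 CPM, against 3.97 and 4.03 CPM in WT basal libraries (log2 1.64 ± 0.42, adjusted p = 0.0377). The calls were lost in 7 of 10 fits without 1 library for Pdpr and in 5 for D2hgdh, with adjusted p up to 0.225 for Pdpr without KO basal replicate 2 and 0.254 for D2hgdh without KO basal replicate 1. In knockout, Slc13a3, a plasma membrane carrier of dicarboxylates, had 10.26, 8.524 and 10.01 CPM with IL-4. Under basal conditions it had 3.46 and 3.40 CPM (log2 1.48 ± 0.35, adjusted p = 0.0168). Ldhb, a lactate dehydrogenase subunit, fell to 4.67, 7.99 and 4.97 CPM with IL-4, against 20.1 and 12.1 CPM under basal conditions (log2 -1.45 ± 0.34, adjusted p = 0.0172). Each of these calls was lost in 2 of 10 fits, at an adjusted p of 0.115 and 0.136 for Slc13a3 without KO basal replicate 1 and 2, and of 0.233 for Ldhb without KO basal replicate 1 and 0.0585 without KO IL-4 replicate 3.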

How the data were processed

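The authors deposited a table of read counts by gene identifier for the 10 libraries. Per the submitters' processing notes, the authors aligned reads to mm10 with STAR and counted them with HTSeq. Versions, annotation and strand setting are not given in the sources used here. Gene identifiers were paired with symbols and coordinates of GENCODE M21, the same build, and 420 of 22165 had no symbol. In edgeR 4.0.16 (R 4.3.3), 11614 genes passed filterByExpr at its count minimum of 10 and total minimum of 15, and TMM set the scaling. The 4 group means were fitted to all 10 libraries at once by robust quasi-likelihood, with 6 degrees of freedom for the residuals, and each comparison was a two-sided contrast in that fit. The biological coefficient of variation over genes was 28.4%. The test was checked on simulated counts. Library totals were 8762403 to 15024073. Replicates differed by more than counting noise, so none was treated as a repeat deposit of another; this does not show that they came from separate mice. Alternatives were DESeq2 size factors, library totals, no filter, the DESeq2 1.42.0 test, the replicate number as a block and leaving out each library in turn. A fit without both KO basal libraries was added after the data were seen.

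The members, the lists and the tests were chosen with earlier results of these data known. All members could be named, with full values for those past the threshold and the smallest p up to 6 per comparison, and other pathway genes where they passed. Opposite-strand overlaps came from GENCODE M21, and near copies from blastn hits of at least 97% identity over 200 bases. The level of the deleted gene and of some other pathway genes is not reported here.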

Additional observations from a re-analysis of the deposited data

Results flagged for a closer look

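By the interaction term in edgeR's quasi-likelihood test, the IL-4 effect differed between the genotypes for 1 of the 69 pathway genes tested and reported. That gene is not a member of the list of 41. The interaction passed for 2.81% of all genes tested. For Acss1, the mitochondrial acetyl-CoA synthetase, the interaction was log2 -2.04 ± 0.39 (adjusted p = 0.00948), with log2 -0.95 in knockout and 1.09 in wild type. It passed in each of the 10 fits without 1 library. B cell markers differ between the KO basal libraries and the other groups, and their part in the Acss1 values was not tested. Groups had 2 or 3 libraries, too few for a test of single outlying libraries.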

How the results depend on the processing

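The order of comparisons here is KO against WT after IL-4, KO against WT under basal conditions, IL-4 against basal in WT, IL-4 against basal in KO, and the interaction. With no filter on low counts, 505, 1034, 1209, 1423 and 819 genes passed, of which 1, 3, 5, 2 and 1 were members of the list of 41. The DESeq2 test passed 396, 895, 1185, 1371 and 623 genes and 0, 1, 5, 4 and 0 members. DESeq2 size factors in edgeR passed the same members as TMM, and library totals passed 115, 531, 737, 918 and 367 genes. Leaving out 1 library at a time gave 21 to 129, 208 to 550, 302 to 764, 327 to 931 and 182 to 397 genes, and 0 to 0, 0 to 2, 0 to 3, 0 to 1 and 0 to 0 members. Without both KO basal libraries 94 genes and 0 members passed between genotypes after IL-4, and 637 genes and 3 members passed with IL-4 in WT. Deviations of same-numbered libraries from their group means correlated at -0.11 to 0.062 over all pairs of groups, none above 0.1, and nothing in the labels ties the numbers to a shared animal or day, so the libraries were not treated as paired; with the replicate number as a block, 83, 387, 474, 554 and 282 genes and 0, 0, 2, 0 and 0 members passed. The log2 difference of Sucla2 between genotypes after IL-4, 1.52, turned to -0.36 without KO IL-4 replicate 2, and over the fits without 1 library it ran from -0.36 to 1.99. Of the 12 gene values past the threshold that were followed over these settings, 2 stayed past it in every fit that gave a value, which are those of Acss1 between basal genotypes and for the interaction. Groups of 2 or 3 libraries limit the precision, and low counts limit it further for Pcx, Me1, Pdk4 and Pdp1. Causes of these differences were not tested.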
